A study of Rattus norvegicus with 12 samples.

Results

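Filtered protein is taken back up in the proximal tubule by a receptor system whose genes were followed in the renal cortex of lean, obese and SGLT2 inhibitor-treated obese rats. The 9 genes were the receptors Lrp2 (megalin), Cubn (cubilin) and Amn (amnionless), the receptor chaperone Lrpap1, the adaptor Dab2, the endosomal proteins Clcn5 and Ocrl, the IgG and albumin receptor Fcgrt, and the ligand Rbp4. They were chosen by gene name with their measured values in these rats already known, so the differences among groups are given for them as a description, and the calls that the fit over all genes made among them are counted once, with nothing read from them. All 9 were among the 13151 genes listed, and all 9 were among the 11633 genes that passed the filter on low values, which asks for 1 CPM or more in 4 or more of the rats.

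The sequenced RNA came from renal cortex of 12 male rats aged 32 weeks, with 4 rats in each of 3 groups. ZL were Zucker lean control rats. ZF were Zucker fatty rats left untreated, which are obese because they lack a working leptin receptor. ZF-SGLT2i were Zucker fatty rats that received canagliflozin, an inhibitor of the glucose transporter SGLT2, in their food at 10 mg/kg/day, starting at an age of 24 weeks and lasting 8 weeks, with food intake per body weight matched to the untreated rats. Per the study's methods, the lean rats had undergone surgical kidney biopsies earlier in life. The study's account of the sequencing names the ZF rats as the untreated arm of the inhibitor experiment, for which no biopsy is described, so earlier biopsy and genotype cannot be told apart between lean and obese rats. ZL and ZF also differ in body mass, and the inhibitor was given only on the obese background. Reads on genes ranged from 8886901 to 12210257 in lean rats, from 8824980 to 11191377 in obese ZF and from 8914666 to 10293049 in treated rats. The ribosomal genes Rn45s and Rn28s took 7.25% to 12.0% of these reads in lean rats, 8.82% to 12.0% in ZF rats and 11.5% to 15.2% in treated rats. Values are in CPM, reads scaled to the size of each library, with TMM scaling between rats. They are not corrected for gene length, so a value given as a percentage of another gene's, or the highest CPM in a list, does not compare numbers of transcripts between genes.

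As background, megalin is a very large receptor of the LDL receptor family, and cubilin is a peripheral protein that is held at the membrane by amnionless. Both sit in the brush border of the proximal tubule, where they bind albumin, vitamin carriers and small hormones from the filtrate and carry them through clathrin-coated pits into acid endosomes. The ligands go on to lysosomes, while the receptors return to the surface. Loss of some of the genes followed here is known for proteinuria, as in Donnai-Barrow, Imerslund-Gräsbeck, Dent and Lowe syndromes.

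The promoters of 5 members are shown because their transcripts had different patterns. Lrp2, Amn and Lrpap1 were lower in the obese groups, Cubn overlapped in all groups, and Rbp4 was higher in treated than in untreated obese rats. Of the 9 members, 8 had a promoter entry in RefSeq (build GRCr8, 250 bases before to 50 bases after the start site), and Ocrl was not matched. The sequences lie at chr3:74754486-74754785 (minus strand), chr6:136132317-136132616 (plus), chr14:79875752-79876051 (plus), chr17:81501645-81501944 (minus) and chr1:245313502-245313801 (minus), and read 5′ to 3′ along the gene. Capitals mark a match on either strand to one of 5 motifs, the GC box GGGCGG, the TATA box TATAAA, the CCAAT box CCAAT, the HNF1 motif GTTAAT or the HNF4 core CAAAGTCC.
Lrp2: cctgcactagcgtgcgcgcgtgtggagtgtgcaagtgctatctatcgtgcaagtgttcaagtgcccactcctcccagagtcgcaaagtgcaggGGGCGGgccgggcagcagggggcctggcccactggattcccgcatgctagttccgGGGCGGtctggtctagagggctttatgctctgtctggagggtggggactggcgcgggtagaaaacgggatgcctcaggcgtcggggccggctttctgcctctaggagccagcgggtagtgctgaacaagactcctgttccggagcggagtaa
Amn: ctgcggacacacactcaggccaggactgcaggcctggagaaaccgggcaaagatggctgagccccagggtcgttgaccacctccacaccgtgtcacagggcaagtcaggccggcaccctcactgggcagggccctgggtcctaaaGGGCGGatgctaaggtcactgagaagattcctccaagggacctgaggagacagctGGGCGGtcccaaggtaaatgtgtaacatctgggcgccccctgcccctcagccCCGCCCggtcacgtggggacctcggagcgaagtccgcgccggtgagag
Lrpap1: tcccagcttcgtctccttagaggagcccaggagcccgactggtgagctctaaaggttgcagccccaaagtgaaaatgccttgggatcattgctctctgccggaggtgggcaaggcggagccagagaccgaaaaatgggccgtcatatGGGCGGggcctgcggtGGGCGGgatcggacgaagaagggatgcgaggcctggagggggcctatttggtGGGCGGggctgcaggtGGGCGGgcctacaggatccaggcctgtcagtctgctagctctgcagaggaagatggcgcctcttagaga
Cubn: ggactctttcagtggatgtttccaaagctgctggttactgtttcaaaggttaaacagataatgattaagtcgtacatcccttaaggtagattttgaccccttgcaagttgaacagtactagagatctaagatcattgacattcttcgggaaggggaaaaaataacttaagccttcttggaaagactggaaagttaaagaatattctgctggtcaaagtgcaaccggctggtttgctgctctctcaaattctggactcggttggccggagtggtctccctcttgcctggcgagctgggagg
Rbp4: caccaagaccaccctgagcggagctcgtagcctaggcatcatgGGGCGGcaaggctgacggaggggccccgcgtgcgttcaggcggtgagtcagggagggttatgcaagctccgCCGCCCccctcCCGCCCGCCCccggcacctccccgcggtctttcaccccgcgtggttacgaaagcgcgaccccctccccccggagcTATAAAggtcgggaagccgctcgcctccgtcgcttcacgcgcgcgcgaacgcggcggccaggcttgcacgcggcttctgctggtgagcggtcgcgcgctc

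The Lrp2 window held 2 GC boxes, the Amn window 3 and the Lrpap1 window 4. The Rbp4 window held 4 GC boxes, of which a pair overlaps, and a TATA box that starts 50 bases before the start site. The Cubn window matched none of the 5 motifs. Its G and C content was 44.7%, against 63.3% for Lrp2, 65.0% for Amn, 62.3% for Lrpap1, 71.7% for Rbp4 and a median of 51.7% over 33469 promoters of the rat genome. A GC box was present in 33.06% of all these promoters, a TATA box in 14.22%, a CCAAT box in 37.49%, the HNF1 motif in 7.45% and the HNF4 core in 1.4%. Among the other members with an entry, Dab2 held 2 CCAAT boxes, Fcgrt 1 HNF1 motif and 1 of the 2 Clcn5 promoters a single GC box. The motifs were picked after the expression values had been seen, and a match is only a match of letters.

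Megalin transcript was lower in both obese groups than in every lean rat. Lrp2 was 11361, 10533, 10608 and 10444 CPM in the 4 ZL rats, 7869, 7247, 9531 and 6695 CPM in ZF, and 7384, 6340, 6979 and 5057 CPM in ZF-SGLT2i. All 8 obese rats lay below all 4 lean rats, while the ZF and ZF-SGLT2i rats overlapped. The mean was 10737 ± 421.9 CPM (SD, n = 4) in lean rats, 7835 ± 1228 in ZF and 6440 ± 1017 in ZF-SGLT2i, or 0.73 times the lean mean in ZF and 0.60 times in ZF-SGLT2i. On the log2(value + 1) scale used for every fold change here, the difference was −0.47 (SE 0.17) for ZF against ZL, −0.28 (SE 0.17) for ZF-SGLT2i against ZF and −0.75 (SE 0.17) between the treated and the lean rats. Under quantile normalization these were −0.194, −0.254 and −0.448, and the second was −0.173 without ZF-SGLT2i rat 6 and −0.186 without ZF rat 4. The gene alone took 0.995% to 1.09% of the reads on genes in lean rats, 0.694% to 0.997% in ZF rats and 0.509% to 0.753% in treated rats. The lean rats were close together, with a coefficient of variation of 3.93%, against 15.7% in ZF and 15.8% in ZF-SGLT2i. The cortex was sequenced whole, so fewer proximal tubule cells and less RNA per cell cannot be told apart in any of these values.

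Amn, whose product anchors cubilin, went in steps from lean to obese to treated. It was 173.8, 176.6, 155.9 and 166.7 CPM in ZL, 130.7, 155.5, 150.9 and 119.5 CPM in ZF, and 124.9, 105.6, 109.2 and 101.7 CPM in ZF-SGLT2i. The lean rats did not overlap with either obese group, although the highest ZF rat reached 155.5 CPM beside the lowest ZL rat at 155.9, and the obese groups overlapped in 1 rat each. The differences were −0.28 for ZF against ZL, −0.33 for ZF-SGLT2i against ZF and −0.61 between the treated and the lean rats, each with an SE of 0.09.

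Cubn did not share this course. It was 1758, 1576, 1851 and 1591 CPM in ZL, 1461, 1318, 1792 and 1230 CPM in ZF, and 1791, 1625, 1640 and 1295 CPM in ZF-SGLT2i. All 3 groups overlapped, and the differences were −0.24, 0.14 and −0.10 (SE 0.13 each) for obese against lean, treated against untreated obese and treated against lean rats. Under quantile normalization the first became 0.003 and the last 0.237, so no direction is given for Cubn in CPM.

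**Figure D1:**
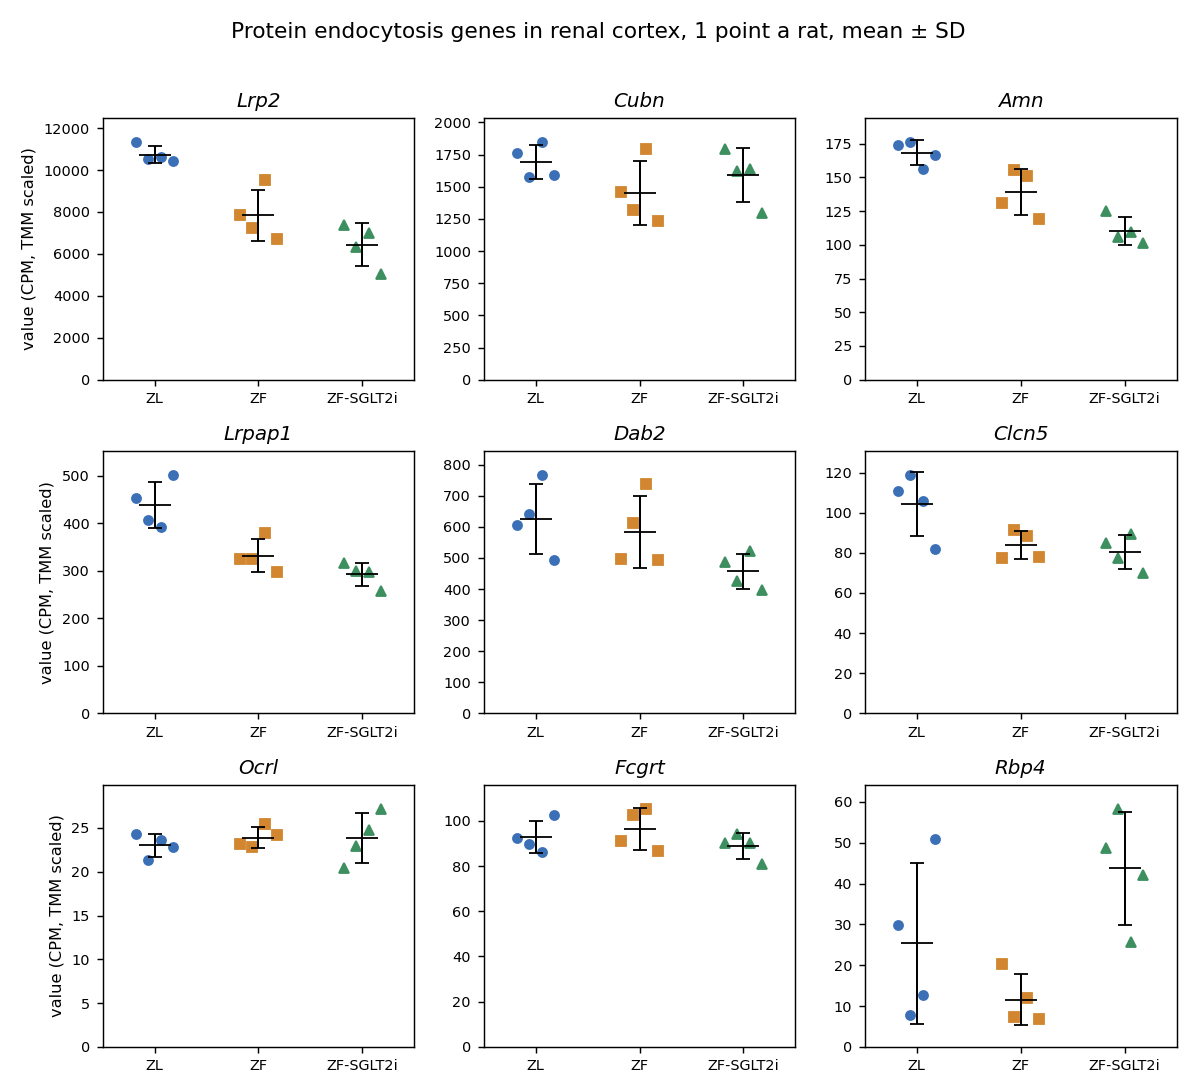
Values of the 9 genes in CPM with TMM scaling (y axis, from 0) in the 4 rats of each group (x axis), 1 point a rat, with the mean and SD in black. Lrp2, Amn and Lrpap1 lie lower in every obese rat than in every lean rat, Cubn, Fcgrt and Ocrl overlap in all groups, and Rbp4 is higher in the 4 ZF-SGLT2i rats than in the 4 ZF rats.

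Set against Lrp2 in the same rat, Cubn separated the groups. The Cubn value was 15.5%, 14.96%, 17.5% and 15.2% of the Lrp2 value in the ZL rats, 18.6%, 18.2%, 18.8% and 18.4% in ZF, and 24.3%, 25.6%, 23.5% and 25.6% in ZF-SGLT2i. The ranges of the 3 groups did not overlap, and the ZF mean was 18.5 ± 0.263 (SD, n = 4), although Lrp2 itself ran from 6695 to 9531 CPM among them. The mean percentage was 15.8 ± 1.13 in ZL and 24.7 ± 1.05 in ZF-SGLT2i (SD, n = 4). Both genes come from the members' own readout, so this too is a description, and as a ratio within a rat it does not move with a scaling factor of that rat. Among the other members, Fcgrt as a percentage of Lrp2 separated lean from obese rats (0.812 to 0.983 in lean rats, 1.11 to 1.42 in ZF rats and 1.22 to 1.60 in treated rats), and so did Ocrl (0.203 to 0.222, 0.267 to 0.361 and 0.277 to 0.538). Amn and Lrpap1 kept overlapping percentages in all groups, at 1.47 to 2.15 and 3.70 to 5.09 over the 12 rats.

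**Figure D2:**
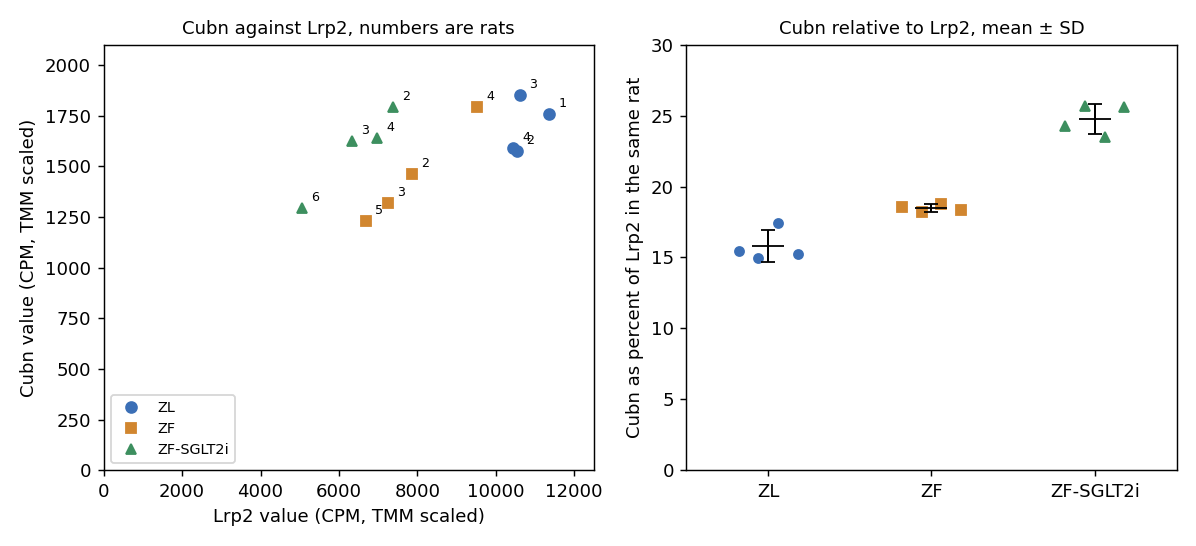
On the left, Cubn (y axis) against Lrp2 (x axis), both in CPM with TMM scaling, with 1 point a rat and its number. On the right, Cubn as a percentage of Lrp2 in each rat (y axis) by group (x axis), with mean and SD: ZL lies between 14.96 and 17.5, ZF between 18.2 and 18.8, and ZF-SGLT2i between 23.5 and 25.6.

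Lrpap1 encodes the receptor-associated protein, which keeps megalin from binding ligands while it folds in the endoplasmic reticulum. It was 452.2, 406.9, 392.0 and 501.1 CPM in ZL, 325.0, 324.6, 379.5 and 296.7 CPM in ZF, and 315.6, 298.4, 298.2 and 257.2 CPM in ZF-SGLT2i. As for Lrp2, every obese rat was below every lean rat and the obese groups overlapped. The differences were −0.40 for ZF against ZL, −0.18 for ZF-SGLT2i against ZF and −0.58 between the treated and the lean rats (SE 0.09 each), and the first was −0.246 under quantile normalization.

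Dab2, the adaptor that links megalin to the clathrin coat, had a coefficient of variation of 18.01% among the lean rats and 19.95% among the ZF rats. Its values were 606.9, 640.2, 766.9 and 492.7 CPM in ZL, 495.5, 611.6, 738.2 and 492.2 CPM in ZF, and 486.6, 424.6, 521.5 and 396.6 CPM in ZF-SGLT2i. All groups overlapped, with 3 of the 4 treated rats below the lowest rat of the other groups. The differences were −0.10 for ZF against ZL, which was 0.122 under quantile normalization, −0.34 for ZF-SGLT2i against ZF and −0.44 between the treated and the lean rats, which was −0.236 under quantile normalization (SE 0.15 each in the limma fit). Without ZF rat 4, the difference for ZF against ZL was −0.223.

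The endosomal members differed among themselves. Clcn5, the chloride-proton exchanger of early endosomes that is mutated in Dent disease, was 110.7, 118.8, 105.7 and 82.1 CPM in ZL, 77.7, 91.5, 88.4 and 77.9 CPM in ZF, and 84.7, 77.6, 89.6 and 70.1 CPM in ZF-SGLT2i. ZL rat 4 lay among the obese rats, and the other 3 lean rats lay above all of them. The differences were −0.30 for ZF against ZL, −0.06 for ZF-SGLT2i against ZF and −0.36 between the treated and the lean rats (SE 0.11 each). Ocrl, the inositol phosphatase of Lowe syndrome, ranged from 21.3 to 24.3 CPM in lean rats, from 22.9 to 25.5 in ZF rats and from 20.5 to 27.2 in treated rats. Its 3 differences were 0.05, −0.01 and 0.04 (SE 0.08 each), so the groups were closer than 1 SE. Fcgrt, which returns IgG and albumin from the acid endosome to the cell surface, ranged from 86.2 to 102.6 CPM in lean rats, from 86.5 to 105.4 in ZF rats and from 80.8 to 94.3 in treated rats. Its differences were 0.05, −0.11 and −0.06 (SE 0.08 each), and its groups overlapped throughout. Without ZF rat 4, Fcgrt was at 0.008 for ZF against ZL and at −0.069 for ZF-SGLT2i against ZF.

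**Figure D3:**
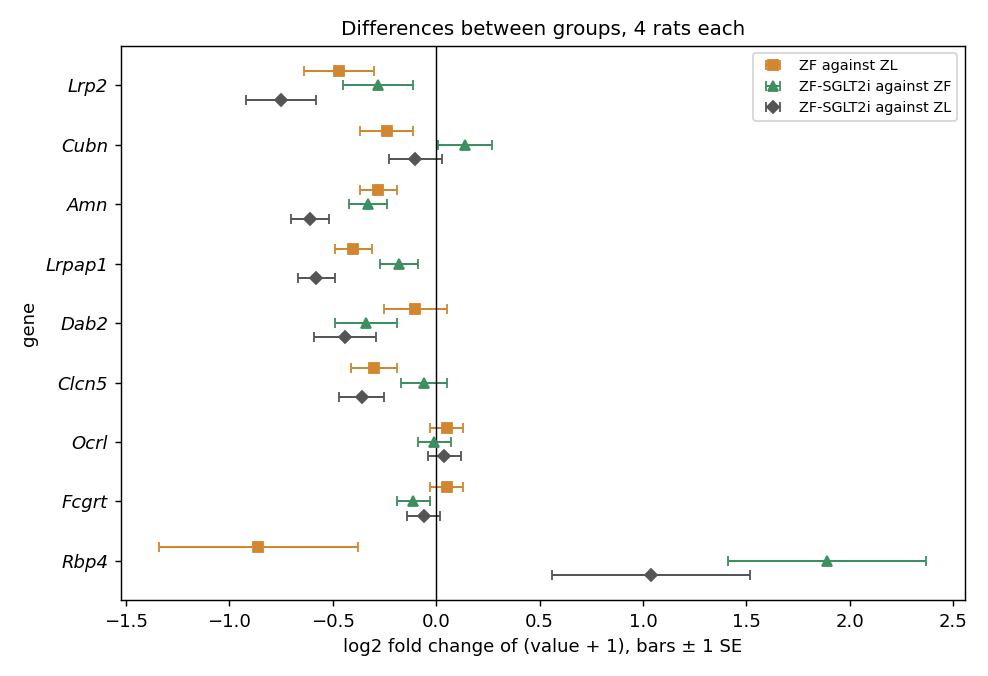
Log2 fold change of the value plus 1 (x axis) for the 9 genes (y axis) in the 3 comparisons of 4 rats with 4 rats, with bars of 1 SE. Lrp2, Amn and Lrpap1 lie left of 0 in all 3 comparisons, Ocrl lies at 0, and Rbp4 is at −0.86 for ZF against ZL and at 1.89 for ZF-SGLT2i against ZF.

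Rbp4 encodes the plasma carrier of retinol, a ligand that megalin takes up, and the last (S3) segment of the proximal tubule is known to transcribe it in the rat. It was 29.97, 7.72, 12.6 and 51.0 CPM in ZL, 20.3, 7.22, 12.1 and 6.78 CPM in ZF, and 48.8, 58.4, 25.7 and 42.0 CPM in ZF-SGLT2i. Every treated rat was above every untreated obese rat, and the lean rats spread across both groups. The ZF-SGLT2i mean was 3.77 times the ZF mean, with a difference of 1.89 (SE 0.48). It was −0.86 (SE 0.48) for ZF against ZL, where leaving out ZL rat 4 gave −0.417 and leaving out ZL rat 2 gave −1.276, and 1.04 (SE 0.48) for ZF-SGLT2i against ZL, where the same omissions gave 1.476 and 0.617. These values rest on 62 to 578 reads per rat.

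Markers of the S3 segment moved with Rbp4 among the lean and the untreated obese rats. The summed value of 6 S3 markers was 2021, 945, 1249 and 3432 CPM in ZL rats 1 to 4 and 1003, 672, 829 and 629 CPM in ZF rats 2 to 5, which in each group is the order of Rbp4. In ZF-SGLT2i the same sum was 906, 963, 917 and 784 CPM, within the range of the other groups. The mean S3 sum was 783 ± 170 CPM in ZF and 893 ± 76.4 CPM in ZF-SGLT2i (SD, n = 4). Single S3 markers went both ways in the treated rats. Slc27a2, the one with the highest CPM, rose with Rbp4 from 450.7 ± 31.6 CPM in ZF to 566.8 ± 19.7 in ZF-SGLT2i, with no overlap (0.33, SE 0.08, adjusted p = 0.0352), a call lost with the replicate block, with edgeR and without ZL rat 1, ZF rat 2, 3 or 5 or any 1 of the 4 treated rats. Slc6a18, an amino acid transporter, was at 105.0 to 216.8 CPM in ZF and 180.9 to 269.4 CPM in ZF-SGLT2i (0.68, SE 0.29, adjusted p = 0.25). The sugar transporter Slc5a10 was at 49.6 to 121.9 CPM in ZF and 20.7 to 39.5 CPM in ZF-SGLT2i (−1.25, SE 0.36, adjusted p = 0.0782). Liver and fat, the main sources of Rbp4 in the body, were looked for through their own markers. Of 9 hepatocyte markers listed, the one with the highest mean CPM over all rats was Fga, with group means of 15.5, 12.9 and 16.6 CPM. The defining marker Alb averaged 0.168 CPM in lean rats, 0.163 in ZF and 0.0783 in ZF-SGLT2i. The 1 hepatocyte marker called in ZF-SGLT2i against ZF was Serpina1, which rose as Rbp4 did, from 0.398 ± 0.315 to 1.75 ± 0.389 CPM with no overlap (1.00, SE 0.20, adjusted p = 0.0151). It rested on 0 to 9 reads per rat in ZF and 13 to 23 in ZF-SGLT2i, and the call was lost with a pseudocount of 0.1 and with the replicate block. Cyp2c11, the only hepatocyte marker called in ZF against ZL, was 27.6, 5.29, 5.78 and 46.7 CPM in the ZL rats, which is the order of Rbp4, and 0.00 to 4.70 CPM in ZF (−2.89, SE 0.61, adjusted p = 0.00652; not called with the replicate block). In the treated rats it stayed at 0.302 to 0.808 CPM. Of 6 adipocyte markers listed, the one with the highest mean CPM over all rats was Adipoq, with group means of 13.9, 11.0 and 14.3 CPM (0.35 for ZF-SGLT2i against ZF, adjusted p = 0.171). Cidec, the only adipocyte marker called, was 25.4, 7.02, 10.2 and 45.8 CPM in the ZL rats, again in the order of Rbp4, 0.437 to 9.78 CPM in ZF (−2.22, SE 0.58, adjusted p = 0.0187) and 1.78 to 4.24 CPM in ZF-SGLT2i. Its call in ZF was lost with the replicate block and without ZL rat 1, ZF rat 3 or ZF rat 5. Plin1 averaged 0.138, 0.0487 and 0.186 CPM. The hepatocyte sum was 54.4 ± 23.1 CPM in lean rats, 31.8 ± 8.36 in ZF and 32.7 ± 6.49 in ZF-SGLT2i, and the adipocyte sum was 38.2 ± 16.5, 16.7 ± 4.45 and 19.1 ± 1.34 CPM. Most of the fall of each sum from ZL to ZF lay in 1 gene. Cyp2c11 averaged 21.4 CPM in ZL and 1.60 in ZF, and Cidec 22.1 and 4.12. In ZL and in ZF, Cyp2c11 and Cidec had the rat order of the S3 sum. The part of S3, hepatocyte and adipocyte content in the Rbp4 values was not tested.

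**Figure D4:**
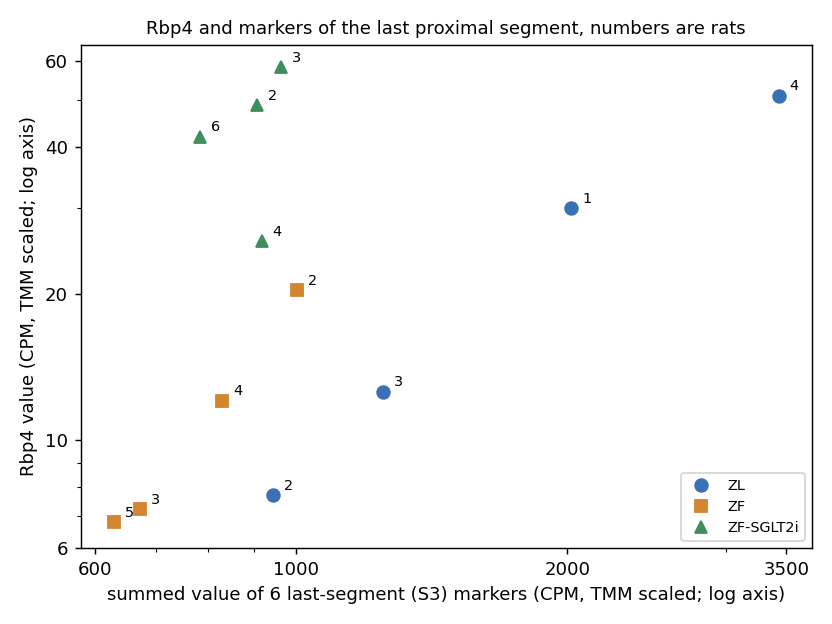
Rbp4 (y axis) against the summed value of 6 S3 segment markers (x axis), both in CPM with TMM scaling on log axes, with 1 point a rat and its number. The ZL and ZF rats rise together along both axes, and the 4 ZF-SGLT2i rats lie at S3 sums of 784 to 963 with Rbp4 between 25.7 and 58.4.

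Counted over the members, 2 of 9 were called lower in ZF than in ZL at an adjusted p under 0.05 (Amn and Lrpap1), where 10.6% of all genes tested were called lower, 8.19% higher and 18.8% in either direction. The groups did not overlap for 3 members (Lrp2, Amn and Lrpap1), against 19% of all genes. For ZF-SGLT2i against ZF, 1 member was called (Rbp4, higher) and did not overlap, where 1.39% of all genes were called higher, 1.75% lower, 3.15% in either direction and 11.2% did not overlap. For ZF-SGLT2i against ZL, 5 members were called lower (Lrp2, Amn, Dab2, Clcn5 and Lrpap1) and 3 did not overlap, where 15% of genes were called lower, 12.4% higher, 27.4% in either direction and 28% did not overlap. The median log2 fold change of the 9 members was −0.279, −0.113 and −0.363 in these comparisons, beside −0.008, 0.006 and 0 over all genes tested. Since these comparisons chose the members, nothing is read from the counts. They also moved with single rats. The first was 1 to 4 (1 without ZL rat 1, ZL rat 2, ZF rat 2, ZF rat 5, ZF-SGLT2i rat 3 or ZF-SGLT2i rat 4, and 4 without ZF rat 4), the Rbp4 call was lost without ZL rat 1, ZF rat 3, ZF rat 4 or ZF-SGLT2i rat 3, 4 or 6, and the last fell to 3 without ZL rat 1, ZL rat 2, ZF-SGLT2i rat 3 or ZF-SGLT2i rat 6. Over the 22 alternatives, ZF-SGLT2i against ZF called Rbp4 in 10 and Amn in 5, so a count of 1 member need not be Rbp4. The comparisons share groups, so they are not independent of each other.

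The genes whose pattern was most like that of 3 members were taken as the highest Pearson correlations of log2(value + 1) over the 12 rats, as a description in which group differences and composition are shared. For Lrp2 they were Gk (glycerol kinase, r = 0.985, Spearman rho = 0.986), Cryl1 (0.979, 0.951) and Pepd (0.977, 0.909). For Cubn they were Cyp2c23 (an arachidonic acid epoxygenase, r = 0.929, rho = 0.916), Sar1b (0.919, 0.846) and Suclg2 (0.910, 0.818). For Rbp4 they were Cyp2d2 (r = 0.945, rho = 0.951), Atp7b (a copper transporter, 0.923, 0.860) and Pex2 (0.917, 0.958). Without the 2 rats farthest from the median of the member, r stayed between 0.807 and 0.982 for these 9 pairs.

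The rest of the uptake machinery was followed in 7 lists of genes outside the members, from the coat to the lysosome, with 164 genes in all, of which 149 were listed and 141 tested. In ZF against ZL, 10 of the 141 were higher and 16 lower at an adjusted p under 0.05 (limma, Benjamini-Hochberg over 11633 genes), or 18.4% beside the 18.8% of all genes, with a median of −0.049. The count was 15 without ZF rat 2 and 40 without ZF rat 4. Under quantile normalization the split of all calls moved from 43.6% higher to 53.9% higher.

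Among 23 coat and adaptor genes, 3 were higher in ZF and 1 lower. Hip1, which links the coat to actin, rose from 75.6 ± 3.74 to 113.9 ± 10.2 CPM (SD, n = 4; log2 fold change 0.58, SE 0.08, adjusted p = 0.000511), with no overlap. Epn2, an epsin, rose by 0.25 (SE 0.06, adjusted p = 0.014). Cltc, the clathrin heavy chain and the gene with the highest CPM in the list, had 1207 ± 32.8 CPM in ZL and 1076 ± 114.4 in ZF and did not pass (adjusted p = 0.177). Of 27 genes of early and recycling endosomes, 4 fell, among them Stam, a sorting protein for ubiquitinated cargo, by 0.38 on the log2 scale (adjusted p = 0.0103). The number that rose was 0 with limma, 1 with edgeR and 2 with DESeq2, and 2 were higher at an unadjusted p under 0.05. Of 21 genes of endosome acidification, 2 fell and 1 rose. Atp6v0d1, a subunit of the proton pump, fell from 294.8 ± 11.5 to 240.9 ± 21.1 CPM (−0.29, adjusted p = 0.0108). The pump gene with the highest CPM, Atp6v0a4, was at 705.9 ± 60.7 and 698.7 ± 38.4 CPM and did not pass (adjusted p = 0.929).

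Transcripts for filtered ligands went both ways in ZF, with 3 of 18 higher and 4 lower. Gc, the vitamin D-binding protein that megalin retrieves, was 30.6, 9.10, 12.2 and 57.6 CPM in ZL and 8.25, 1.00, 2.99 and 0.219 CPM in ZF, a change of −2.86 on the log2 scale (SE 0.58, adjusted p = 0.00531). Its order among the lean rats was that of Rbp4 and of the S3 markers, but it stayed at 0.780 to 1.71 CPM in the treated rats, whose Rbp4 was high. Clu (clusterin) was 92.5 ± 11.1 CPM in ZL and 204.7 ± 40.5 in ZF (1.12, SE 0.14, adjusted p = 0.000296), and Cst3 (cystatin C) was 220.5 ± 23.0 and 348.9 ± 19.3 CPM (0.66, SE 0.08, adjusted p = 0.000174). Lcn2 (lipocalin 2, a ligand of megalin) was 2.17 to 3.40 CPM in ZL and 4.26 to 20.9 CPM in ZF (1.5, SE 0.40, adjusted p = 0.021), a call lost without ZL rat 1 or ZF rat 2. Both Lcn2 and Clu are also on the list of injured tubule markers. Sepp1 (selenoprotein P, a selenium carrier bound by megalin) fell from 3829 ± 318.2 to 2661 ± 501.7 CPM (−0.54, SE 0.13, adjusted p = 0.0141), a call that was lost under quantile normalization and with the replicate block. In the LDL receptor family list of 14 genes, 1 rose and 1 fell. Mylip, a ubiquitin ligase that marks receptors of this family for degradation, rose by 0.38 (SE 0.09, adjusted p = 0.00978), and the sorting receptor Sorl1 fell from 261.3 ± 15.1 to 206.9 ± 17.03 CPM (−0.34, SE 0.07, adjusted p = 0.00431). Late endosome and lysosome genes had 1 higher and 2 lower of 22, with the protease Ctsb, the highest in CPM, at 2905 ± 612.2 and 2837 ± 613.9 CPM. Retinoid handling had 1 higher and 2 lower of 17.

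**Figure D5:**
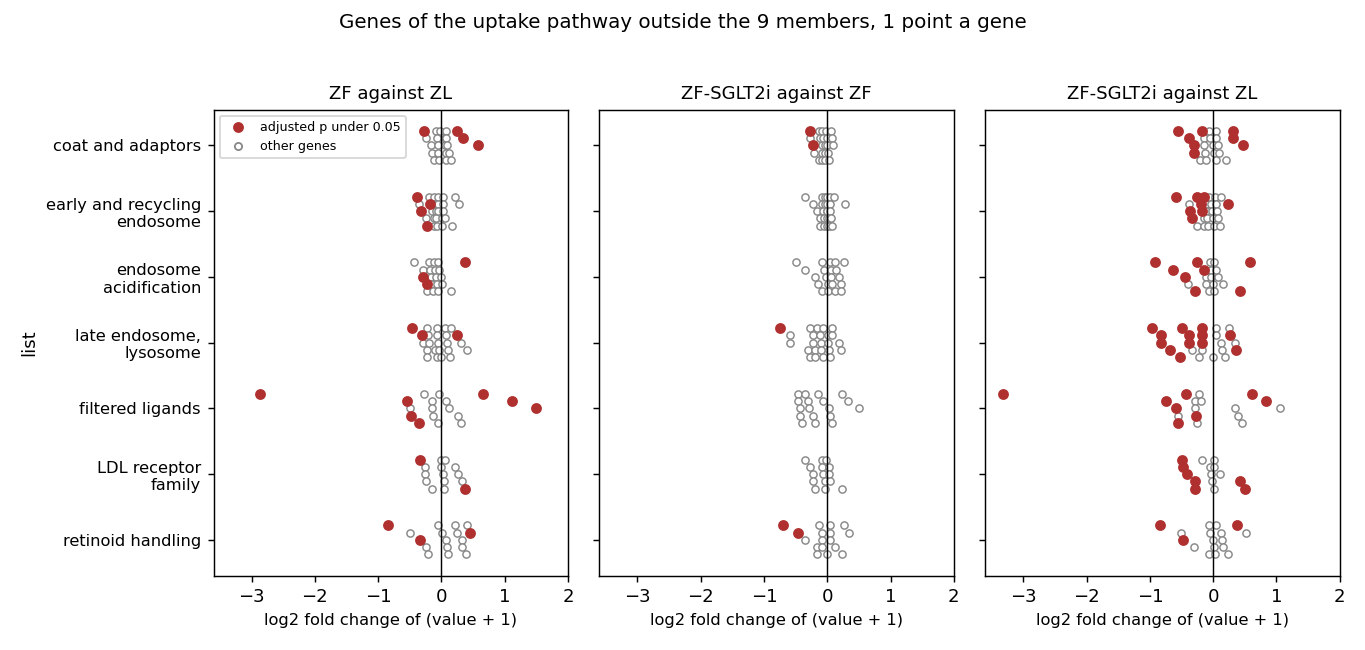
Log2 fold change of the value plus 1 (x axis) for 141 tested genes outside the members, by list (y axis), in the 3 comparisons. Ctsd is drawn in both of its lists, and Rab7a, Ctsl and Mesdc2 are drawn again because their list also held another name of the gene. Filled points passed an adjusted p of 0.05, and the comparison of ZF-SGLT2i with ZF holds 5 of them, all left of 0.

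In ZF-SGLT2i against ZF, 5 of the 141 genes were lower, or 3.5% beside the 3.15% of all genes. The number higher was 0 with limma, 0 with edgeR and 1 with DESeq2, and 9 at an unadjusted p under 0.05. Aldh1a2, which makes retinoic acid, went from 6.47 ± 0.500 CPM in lean rats to 9.19 ± 0.536 in ZF (0.45, adjusted p = 0.011), then to 6.46 ± 0.944 in ZF-SGLT2i (−0.46, SE 0.11, adjusted p = 0.0309). Lrat, which esterifies retinol for storage, went from 2.08 ± 0.528 to 0.890 ± 0.293 CPM (−0.70, SE 0.17, adjusted p = 0.0393). The retinoid gene with the highest CPM, Aldh1a1, was at 630.3 ± 61.3 CPM in ZF and 745.3 ± 82.4 in ZF-SGLT2i and did not pass. Dpp7, a lysosomal peptidase, fell by 0.74 (SE 0.17, adjusted p = 0.0335), the AP-2 adaptor subunit Ap2a2 by 0.27 (SE 0.06, adjusted p = 0.0223) and the coat scaffold Eps15 by 0.22 (SE 0.06, adjusted p = 0.0485). The count of 5 was 0 without ZF rat 3, ZF rat 4, ZF-SGLT2i rat 4 or ZF-SGLT2i rat 6, 1 without ZF-SGLT2i rat 3, 2 without ZF rat 2, 3 without ZL rat 1 or ZF-SGLT2i rat 2, 8 without ZL rat 4 and 9 without ZF rat 5.

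In ZF-SGLT2i against ZL, 13 of the 141 genes were higher and 39 lower, or 36.9% beside 27.4% of all genes, with a median of −0.06. Lysosome genes had 9 lower and 2 higher of 22, among them Ctsl, a protease, from 902.1 ± 138.2 to 512.7 ± 84.9 CPM (−0.82, adjusted p = 0.00249), and Mcoln1, a calcium channel of the lysosome, by −0.53 (adjusted p = 0.000494). Among the acidification genes, 6 were lower and 2 higher of 21. Clcn4, an exchanger of the same family as Clcn5, was at 78.1 ± 15.7 CPM in ZL and 40.2 ± 4.97 in ZF-SGLT2i (−0.92, adjusted p = 0.00183), and the pump subunit Atp6v1b2 at 361.0 ± 32.7 and 231.1 ± 19.5 CPM (−0.64, adjusted p = 0.000676). Clcn3, another member of that family, went the other way (0.42, adjusted p = 0.00129), as did the endosomal exchanger Slc9a9 (0.58, adjusted p = 0.00135). Coat genes had 5 lower, with Picalm, which brings coat proteins to the membrane, at −0.55 (adjusted p = 0.000697), and 3 higher of 23. Early endosome genes had 7 lower, with the recycling protein Ehd1 at −0.59 (adjusted p = 0.00166), and 1 higher of 27. Ligand genes had 6 lower and 2 higher of 18. Gpx3, the plasma glutathione peroxidase that the tubule secretes and the highest in CPM of that list, was at 13983 ± 2873 CPM in ZL and 9361 ± 457.2 in ZF-SGLT2i and did not pass (adjusted p = 0.0713). The LDL receptor family had 4 lower, with Vldlr at −0.48 (adjusted p = 0.00195), and 2 higher, with the sorting receptor Sort1 at 0.50 (adjusted p = 0.00115), while the highest in CPM, Lrp10, was at 290.0 ± 12.5 and 294.5 ± 13.3 CPM and did not pass (adjusted p = 0.816). Retinoid genes had 2 lower of 17, the retinol transporter Stra6 (−0.84, adjusted p = 0.00401) and the retinol dehydrogenase Rdh10 (−0.47, adjusted p = 0.00281), and 1 higher.

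Markers of the proximal tubule outside protein uptake also moved. Of 21 such markers, 8 were lower and 2 higher in ZF than in ZL, 2 lower in ZF-SGLT2i than in ZF, and 9 lower and 1 higher in ZF-SGLT2i than in ZL. Their summed value was 29157 ± 1586 CPM in lean rats, 24842 ± 2816 in ZF and 23436 ± 1610 in ZF-SGLT2i (SD, n = 4). Slc3a1, a subunit of the cystine transporter, fell by 1.34 in ZF against ZL (SE 0.31, adjusted p = 0.00978) and the brush border peptidase Anpep by 0.82 (SE 0.16, adjusted p = 0.00369). The organic anion transporter Slc22a6 rose by 0.33 in ZF against ZL (SE 0.10, adjusted p = 0.0402) and fell by 0.59 in ZF-SGLT2i against ZF (SE 0.10, adjusted p = 0.00843). The call of the rise was lost with only the 2 groups compared and with the replicate block. It was also lost without ZL rat 1 or 4, ZF rat 3, 4 or 5 or ZF-SGLT2i rat 3 or 4. The call of the fall was lost with the replicate block. Pck1, the gluconeogenic enzyme PEPCK, was also called higher, at 1640 ± 463.4 CPM in ZL, 2621 ± 445.7 in ZF (0.71, SE 0.21, adjusted p = 0.0288) and 3938 ± 606.9 in ZF-SGLT2i (1.3 against ZL, SE 0.21, adjusted p = 0.00063). Its call in ZF was lost with only the 2 groups compared, with the replicate block and without ZF rat 4 or 5. Per 1000 CPM of this marker sum, Lrp2 was 368.8 ± 17.7 in lean rats, 315.0 ± 27.7 in ZF and 273.7 ± 28.4 in ZF-SGLT2i, and the ZL rats overlapped with ZF but not with ZF-SGLT2i. Cubn on the same scale was 58.0 ± 1.83, 58.3 ± 5.80 and 67.6 ± 5.24, and Amn was 5.79 ± 0.528, 5.61 ± 0.466 and 4.71 ± 0.371. For Cubn the ZF-SGLT2i rats (61.55 to 74.32) were above all ZL rats (55.53 to 59.86) and overlapped with the ZF rats. With Pck1 left out of the sum, a choice made after its values were seen, Lrp2 was 390.6 ± 17.98, 352.3 ± 28.2 and 328.7 ± 26.3, again with the ZL rats above all ZF-SGLT2i rats, Cubn was 61.5 ± 1.75, 65.2 ± 5.98 and 81.2 ± 4.77, and Amn was 6.13 ± 0.570, 6.27 ± 0.439 and 5.66 ± 0.325. Without Pck1 the ZF-SGLT2i rats (75.01 to 85.9) were above all ZF and all ZL rats for Cubn. Lrpap1 per 1000 CPM of the whole sum was 15.1 ± 2.36 in lean rats, 13.4 ± 0.615 in ZF and 12.5 ± 0.427 in ZF-SGLT2i. Without Pck1 it was 15.98 ± 2.28, 14.95 ± 0.631 and 14.99 ± 0.346. On both scales the lean rats overlapped with each obese group for Lrpap1. The S3 markers had 4 of 6 lower in ZF than in ZL, led by Slc7a13 (−3.98, SE 0.83, adjusted p = 0.00601), which ran from 139.9 to 1896 CPM among the lean rats. Slc27a2 fell by 0.44 in the same comparison (SE 0.08, adjusted p = 0.00259).

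Markers of other cell types were read beside these. Of 11 injured tubule markers, 8 were higher in ZF than in ZL, with Havcr1 (KIM-1) at 1.56 to 1.88 CPM in ZL and 7.32 to 52.3 CPM in ZF (3.01, SE 0.57, adjusted p = 0.00376) and Spp1, the highest in CPM, at 169.3 ± 5.97 and 813.1 ± 549.8 CPM (1.98, SE 0.47, adjusted p = 0.0115). In the treated rats Havcr1 ran from 2.34 to 21.9 CPM, with ZF-SGLT2i against ZF at −0.89 (adjusted p = 0.461). The injured tubule sum was 673 ± 98.8 CPM in lean rats, 1530 ± 687.5 in ZF and 1226 ± 348.8 in ZF-SGLT2i. Podocyte markers had 6 of 9 higher in ZF than in ZL, with sums of 1682 ± 213.4, 2220 ± 211.7 and 2271 ± 237.6 CPM. Endothelial markers had 3 of 10 higher (824.4 ± 111.1, 995.7 ± 59.1 and 952.5 ± 120.9 CPM), macrophage markers 0 of 9 with limma, 1 with edgeR, 1 with DESeq2 and 3 at an unadjusted p under 0.05 (858.7 ± 78.6, 1073 ± 186.9 and 1025 ± 160.9 CPM), and markers of the thick limb, distal tubule and collecting duct 1 of 14 (9210 ± 344.2, 9662 ± 764.4 and 10240 ± 526.6 CPM). In ZF-SGLT2i against ZL, in which 5 members were called lower, 7 of these 14 were higher and 1 lower, or 57.1% beside 27.4% of all genes. Injured tubule markers then had 7 higher and 1 lower of 11, podocyte markers 6 of 9 higher and endothelial markers 3 of 10 higher. The water channel Aqp2 of the collecting duct rose from 442.9 ± 109.8 CPM in ZL to 852.1 ± 77.2 in ZF-SGLT2i (0.97, SE 0.16, adjusted p = 0.000742). It was also higher than the 558.1 ± 98.8 CPM of ZF (0.62, SE 0.16, adjusted p = 0.0495), a call lost in 15 of 22 alternatives, among them those without ZL rat 1 or 3, ZF rat 2, 3 or 4 or any 1 of the 4 treated rats. Vcam1, an adhesion molecule on the injured tubule list, fell by 0.67 in ZF-SGLT2i against ZF (SE 0.16, adjusted p = 0.0387), a call lost without ZF rat 2, 3 or 4 or any 1 of the treated rats. The part of these shifts in the values of the uptake genes was not tested.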

How the data were processed

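The deposited signal was 1 table of normalized values for 13151 genes in 12 rats. Per the labels, the authors depleted ribosomal RNA, made directional libraries and used Trimmomatic 0.38, RSEM 1.3.0, Bowtie2 and edgeR with the rat build rn6. The roles of these tools and the annotation were not given in the sources used here. Each value was a whole read count times a constant of the rat, and recovered reads put through CPM with TMM in edgeR 4.0.16 returned the deposited signal with a largest relative gap of 3.15e-16. All values (100%) were whole reads within 1e-06.

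Values were tested as log2(value + 1) with limma 3.58.1 (R 4.3.3; trended eBayes, 3 groups in 1 fit, two-sided, Benjamini-Hochberg over 11633 genes that reached 1 CPM in 4 or more rats, adjusted p under 0.05). The 4 rats of a group are separate animals. SE are those of the fit. In 22 alternatives the settings were changed one at a time: a pseudocount of 0.1, no filter, a mean of at least 10, median ratio and quantile scaling, only 2 groups, a replicate block, array quality weights, edgeR and DESeq2 1.42.0 on recovered reads, and each of 12 rats left out.

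The members, the pathway and marker lists and the motifs were chosen with earlier results of these data known. Named from the lists were genes with the largest calls in each list and comparison, the gene with the highest CPM in each list, and the marker genes called. Alb and Plin1 are described as members of their lists, and Sepp1 is Selenop in current naming. No p is given for a member. Single results that the naming rule would have listed are not reported here. Reads on genes limit the precision of low genes such as Rbp4 and Gc. Strand was kept in the libraries, but strand use in counting was not given in the sources used here.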

Additional observations from a re-analysis of the deposited data

Results flagged for a closer look

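Over the 60 genes named from the lists and the members, each in 3 groups of 4 rats, a single rat stood apart from the other 3 of its group in 11 of 180 gene and group sets, where chance alone flags about 1 in 20 (9.0 expected). None of the 11 was a member. In ZL rat 4, which also had the highest S3 marker sum, Ehd1 was 252 CPM beside 296 to 302 in the other lean rats, Clcn3 was 122 beside 148 to 149, Clcn4 was 54.6 beside 84.4 to 87.0, Aldh1a1 was 503 beside 809 to 844, and Slc22a6 was 525 beside 707 to 726. Spp1 was 178 CPM in ZL rat 2 beside 166 to 167. Among the ZF rats, Sorl1 was 181 CPM in rat 5 beside 214 to 218, Eps15 was 99.1 in rat 4 beside 91.8 to 92.9, and Slc9a9 was 13.3 in rat 3 beside 16.0 to 16.5. In ZF-SGLT2i rat 6, which had the lowest Lrp2 value, Clcn4 was 32.9 CPM beside 42.0 to 43.8 and Anpep was 266 beside 325 to 333.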

How the results depend on the processing

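Of the 594 recomputed log2 fold changes of the members, 588 moved by less than the spread between rats, 6 moved further, all under quantile normalization, and none was called with the opposite sign. The counts of calls moved more. With quantile normalization 1 member was called between obese and lean rats and 2 in ZF-SGLT2i against ZF. With only the 2 groups compared in the fit, 1 member was called in ZF against ZL. For ZF-SGLT2i against ZF, 0 members were called with no filter on low values, with a mean of at least 10 and with edgeR on recovered reads, and the pathway count was 3 with a mean of at least 10. Array quality weights called 4 members between obese and lean rats and, in ZF-SGLT2i against ZF, 689 genes, 12 pathway genes and 2 members. DESeq2 on recovered reads called 4 members between obese and lean rats and, in ZF-SGLT2i against ZF, 641 genes, 11 pathway genes and 2 members. The cause of these moves was not tested.

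Leaving out each rat in turn gave 1384 to 2453 genes called in ZF against ZL (2185 with all rats), with 15 to 40 pathway genes and 1 to 4 members. In ZF-SGLT2i against ZF it gave 176 to 569 genes (366 with all rats), 0 to 9 pathway genes and 0 to 1 members. In that comparison the member differences ran from 0.061 (without ZF rat 5) to 0.242 (without ZF rat 4) for Cubn, from −0.416 (without ZF rat 5) to −0.222 (without ZF rat 4) for Dab2, from −0.23 (without ZF rat 5) to −0.112 (without ZF rat 4) for Lrpap1 and, for Clcn5, from −0.113 when ZF-SGLT2i rat 4 was omitted to 0.003 when rat 6 was. In ZF-SGLT2i against ZL it gave 3 to 6 members, and the counts of genes and pathway genes stayed within 1.5 times of 3184 and 52.

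What rats with the same number in different groups share beyond the number was not given in the sources used here. For numbers 2, 3 and 4, the correlation of their deviations from the group means was −0.376, 0.091 and 0.126 for ZF and ZL, 0.014, −0.023 and 0.253 for ZF-SGLT2i and ZF, and 0.026, −0.143 and −0.027 for ZF-SGLT2i and ZL. The number of rats that correlated best with their own number was 0 of 6, 2 of 6 and 0 of 6 in these comparisons. A fit with the rat number as a replicate block called 807 genes, 7 pathway genes and 0 members in ZF against ZL, 223 genes, 2 pathway genes and 0 members in ZF-SGLT2i against ZF, and 1502 genes, 30 pathway genes and 2 members in ZF-SGLT2i against ZL. Depth limits the low genes most, since Rbp4 rested on 62 reads in its lowest rat.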
